A study of Mus musculus with 6 samples.

Results

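The interleukin-6 family is a group of secreted cytokines that share the signal-transducing receptor chain encoded by Il6st, known as gp130. The genes described are 9 members: the ligand genes Lif, Il6, Il11 and Clcf1, the signal-transducing receptor chain genes Il6st, Lifr and Osmr, the gene of the interleukin-6 binding chain Il6ra, and Socs3, the feedback inhibitor of the pathway. They were picked by gene name out of 55401 genes listed in the deposited tables, and each name matched 1 gene. The family was selected on an earlier reading of the same IPRN and DMSO libraries, in which Lif and Il11 were lower under IPRN, so the differences between the groups below are descriptions and not independent evidence. All 9 members passed the filter on low counts, as did 17159 genes in all.

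Messenger RNA was sequenced from NIH3T3, a fibroblast line grown from mouse embryos and labelled wild type. IPRN was given to 3 libraries and the vehicle DMSO to the other 3. The title of the series names angelicin, a plant furanocoumarin, and the design text states that hydrogen peroxide and TGF-β were added to push the cells towards a cancer-associated fibroblast state, a treatment that the sample labels do not give for either group. Dose, time and whether replicates came from separate cultures are not stated, so p-values reflect only how far these libraries scatter, and that scatter may be technical.

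Ligands of this family first bind a private receptor chain or a signalling partner and then bring gp130 into a complex, which activates JAK kinases and the transcription factor STAT3. Interleukin-6 and interleukin-11 signal through a pair of gp130 chains, after binding Il6ra or Il11ra1. LIF uses gp130 with the LIF receptor, and oncostatin M, in mice, mainly uses gp130 with the oncostatin M receptor. STAT3 induces Socs3, whose protein binds gp130 and shuts off the kinases. In fibroblasts of tumours and wounds LIF, interleukin-6 and interleukin-11 are known as secreted signals to neighbouring cells and to the fibroblast itself.

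Total counts ran from 60320282 to 78629444 per library. All 10 fibroblast markers had counts in every library, summing to between 24179.5 and 26715.4 CPM in IPRN libraries and between 22099.2 and 23070.2 CPM in DMSO libraries. Low levels of liver transcripts were present in 4 libraries but close to absent in IPRN 3 and DMSO 1: 19 liver markers, leaving out Hp, summed to 110.6, 40.5 and 3.4 CPM in IPRN 1, 2 and 3 and to 3.0, 58.1 and 33.2 CPM in DMSO 1, 2 and 3. IPRN 3 also carried myeloid transcripts. The 9 myeloid markers summed to 22.3, 22.4 and 144.8 CPM in IPRN 1, 2 and 3 and to 13.2, 22.9 and 25.3 CPM in DMSO 1, 2 and 3. Most of the IPRN 3 sum was Lyz2, at 98.0 CPM. Each marker was highest in IPRN 3 among the IPRN libraries, but not all exceeded DMSO. Ptprc was at 1.63 CPM in IPRN 3 and 1.47 CPM in DMSO 3. Cd14 was at 8.4 CPM in IPRN 3, below 9.99, 10.2 and 10.4 CPM in DMSO 1, 2 and 3.

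Upstream sequence is given for the 3 ligand genes that were lower under IPRN and for Socs3. These 250-base stretches just before a RefSeq transcription start hold the matches to transcription factor motifs found in the family. RefSeq windows (GRCm38.p6) existed for 8 of the 9 members, all but Clcf1, and 10 windows were searched on both strands. A RefSeq start need not be the outer end of the deposited gene. The windows of Socs3, Lifr, Osmr and the downstream Il11 start lay wholly inside the deposited gene. The motifs were TGANTCA for AP-1, GGGA, any base and TTTCC for NF-kB, TTGNGCAA for C/EBP, TTCNNNGAA for STAT factors and TGACGTCA for the cyclic AMP response element. Capitals mark the matches. The stretches are chr11:4257318-4257567 on the plus strand for Lif, chr5:30012864-30013113 on the plus strand for Il6, chr7:4778142-4778391 on the minus strand for the downstream of 2 annotated starts of Il11, and chr11:117969367-117969616 on the minus strand for Socs3.
Lif: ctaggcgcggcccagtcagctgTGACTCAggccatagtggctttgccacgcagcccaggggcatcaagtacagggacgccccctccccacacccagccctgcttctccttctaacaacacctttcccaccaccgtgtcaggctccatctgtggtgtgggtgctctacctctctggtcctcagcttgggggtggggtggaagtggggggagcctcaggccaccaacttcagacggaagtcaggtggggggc
Il6: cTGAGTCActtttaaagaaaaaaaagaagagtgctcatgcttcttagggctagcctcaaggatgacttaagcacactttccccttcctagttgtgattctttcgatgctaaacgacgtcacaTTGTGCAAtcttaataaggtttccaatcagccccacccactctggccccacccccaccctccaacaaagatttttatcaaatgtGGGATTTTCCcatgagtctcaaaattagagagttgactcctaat
Il11: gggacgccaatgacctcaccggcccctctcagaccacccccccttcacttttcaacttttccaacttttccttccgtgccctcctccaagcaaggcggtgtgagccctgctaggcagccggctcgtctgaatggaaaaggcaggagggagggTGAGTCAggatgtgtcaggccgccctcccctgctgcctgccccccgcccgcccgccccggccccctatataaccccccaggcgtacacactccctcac
Socs3: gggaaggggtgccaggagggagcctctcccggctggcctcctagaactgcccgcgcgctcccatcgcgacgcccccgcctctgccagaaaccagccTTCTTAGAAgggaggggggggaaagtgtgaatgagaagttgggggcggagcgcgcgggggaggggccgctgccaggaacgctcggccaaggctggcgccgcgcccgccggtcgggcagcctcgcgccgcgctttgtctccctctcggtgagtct

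An AP-1 heptamer was present upstream of Lif (TGACTCA, from 228 to 222 bases before the start), of Il6 (TGAGTCA, from 249 to 243 bases before) and of the downstream start of Il11 (TGAGTCA, from 98 to 92 bases before). AP-1 is a dimer of Fos and Jun family proteins. Of 32851 such windows over the genome 6.75% held this heptamer. The Il6 window also held a C/EBP match (TTGTGCAA, from 128 to 121 bases before the start), found in 2.61% of windows, and an NF-kB match (GGGATTTTCC, from 44 to 35 bases before), found in 0.356%. The Socs3 window held a STAT match (TTCTTAGAA, from 154 to 146 bases before the RefSeq start), found in 7.02% of windows. The cyclic AMP response element, found in 1.55% of windows, had no match in these 10 windows, and the upstream start of Il11 and the windows of Il6st, Lifr, Osmr and Il6ra held none of the 5 motifs. The motifs were chosen after these sequences had been read, so the shares of windows are no measure of how unusual the matches are. A match describes letters only, and binding was not measured.

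Lif and Il6 were much lower under IPRN and Il11 was moderately lower, while the 4th ligand gene, Clcf1, the receptor chain genes and Socs3 did not pass the threshold. In the genome-wide fit, edgeR's quasi-likelihood test with Benjamini-Hochberg adjustment over 17159 genes and a threshold of 0.05, 3 of the 9 members were called lower, against 3.01% of all genes, and 2 of them (Lif and Il6) without both DMSO 1 and IPRN 3. No member was called higher, against 2.46% of all genes (0 at an unadjusted p under 0.05, and 0 by DESeq2), and 5.47% of all genes were called in either direction. The IPRN and DMSO libraries did not overlap for 33.3% of members, a share near the 29.6% of all tested genes. Since the family was selected on this contrast, nothing is read from these shares. In bulk RNA, fewer cells that make a transcript and less of it per cell cannot be told apart. The median log2 fold change was -1.17 over the 4 ligands and -0.12 over the 9 members, against 0.00156 over all tested genes. The selection of the family bears on these medians too, so nothing is read from them. Levels below are CPM, the counts scaled to library size after TMM normalization, unless FPKM is named.

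**Figure D1:**
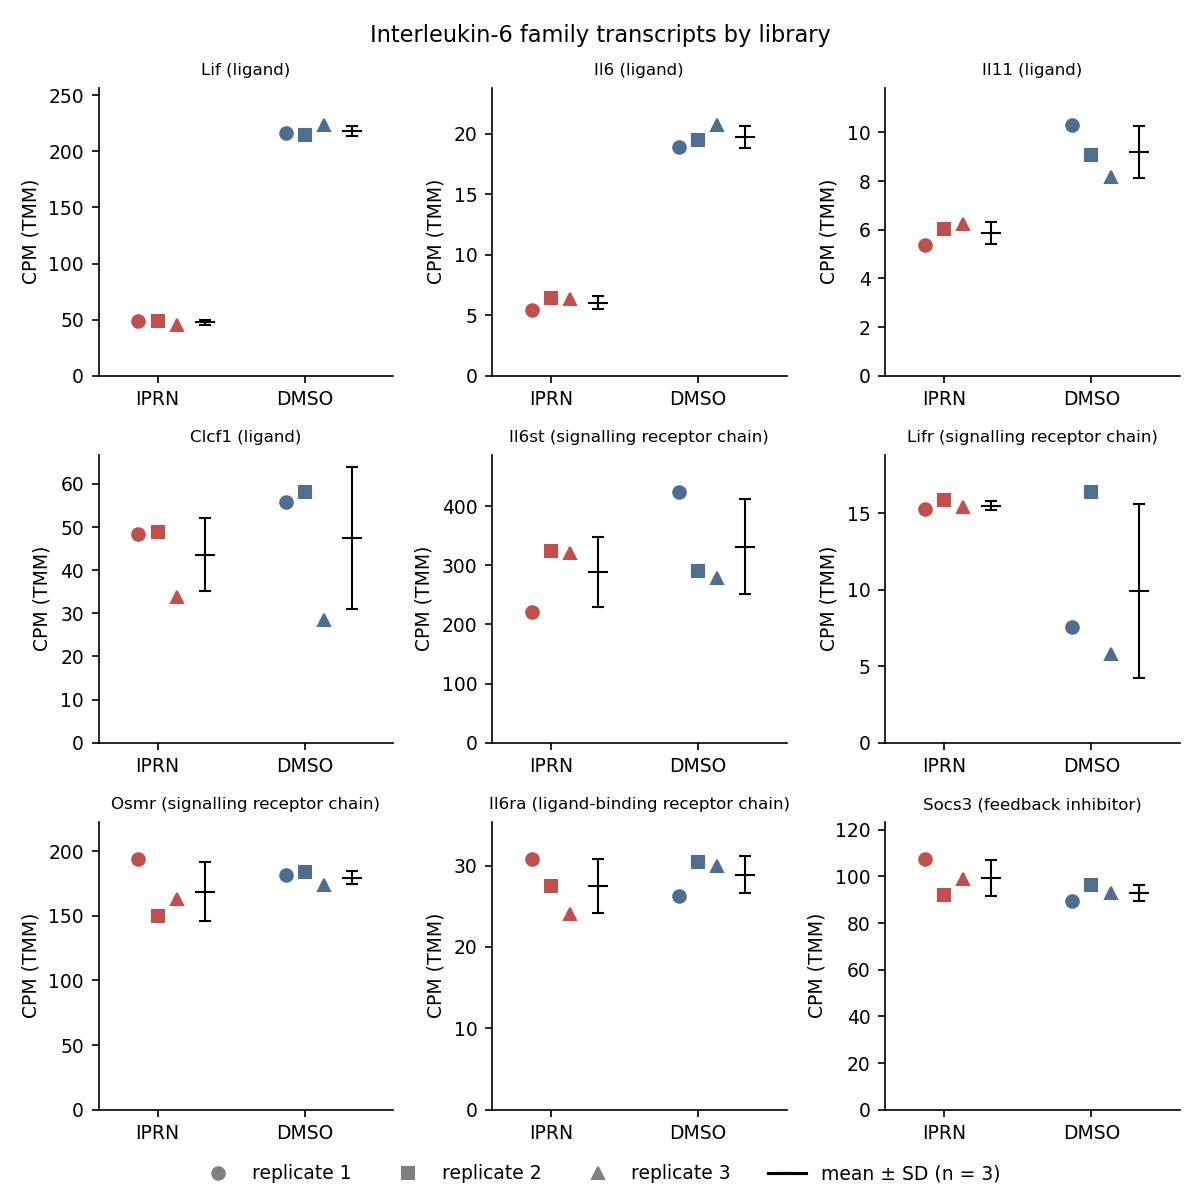
CPM of each member in the 3 IPRN libraries and the 3 DMSO libraries, with the mean ± SD beside the points and a vertical axis from 0 in each panel. Lif, Il6 and Il11 separate the groups, whereas DMSO 2 stands apart from the other DMSO libraries for Lifr and replicate 3 of both groups is low for Clcf1.

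Lif encodes leukaemia inhibitory factor, which binds the LIF receptor and gp130. It was present at 48.8, 48.9 and 44.9 CPM in IPRN 1, 2 and 3 and at 216.3, 214.9 and 223.4 CPM in DMSO 1, 2 and 3. The groups were far apart and each was tight, at 47.5 ± 2.29 CPM in IPRN and 218.2 ± 4.54 CPM in DMSO (SD, n = 3 each). The log2 fold change was -2.20 ± 0.0544 (SE), a 4.59-fold lower level, with an adjusted p of 1.07e-05 in edgeR. It ranked as fall 17 by size among the 516 genes called lower. The gene (ENSMUSG00000034394) lies on chromosome 11 from 4257557 to 4272514, plus strand, GRCm38, and shares no exon stretch with another model.

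Il6 encodes interleukin-6, the founding ligand of the family. Its level was 5.43, 6.40 and 6.30 CPM in IPRN 1, 2 and 3 and 18.9, 19.5 and 20.7 CPM in DMSO 1, 2 and 3. All IPRN libraries lay below all DMSO libraries, with means of 6.04 ± 0.534 and 19.7 ± 0.910 CPM for IPRN and DMSO (SD, n = 3 each). The log2 fold change was -1.71 ± 0.103 (SE), or 3.26-fold lower, at an adjusted p of 0.000473 in edgeR. Il6 (ENSMUSG00000025746, chromosome 5 from 30013114 to 30019981, plus strand) rested on 387 to 477 counts per IPRN library and 1136 to 1624 counts per DMSO library. Lif and Il6 stayed called whichever library was left out.

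Il11 encodes interleukin-11, a cytokine that TGF-β induces in fibroblasts. It had 5.37, 6.02 and 6.24 CPM in IPRN 1, 2 and 3 and 10.3, 9.07 and 8.18 CPM in DMSO 1, 2 and 3. The groups did not overlap, but IPRN 3 and DMSO 3 lay about as close to each other as DMSO 3 did to DMSO 1. The log2 fold change of -0.64 ± 0.128 (SE), or 1.56-fold lower, had an adjusted p of 0.0384 in edgeR. When each library was dropped in turn it was called 0 of 6 times, and the log2 fold change ran from -0.72 to -0.55 and the adjusted p from 0.0687 to 0.137. Il11 (ENSMUSG00000004371) lies on chromosome 7 from 4772373 to 4782857, minus strand, as the deposited tables give it.

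Clcf1 encodes cardiotrophin-like cytokine factor 1, which signals through the CNTF receptor, gp130 and the LIF receptor. It measured 48.3, 48.8 and 33.8 CPM in IPRN 1, 2 and 3 and 55.7, 58.1 and 28.5 CPM in DMSO 1, 2 and 3. The 3rd replicate was the lowest of each group, and the groups overlapped. The log2 fold change was -0.12 with a 95% interval from -0.78 to 0.54 (adjusted p = 0.867), an interval that includes the value of Il11. Without DMSO 1, DMSO 2 or IPRN 3 the sign turned, to between 0.01 and 0.06. Clcf1 (ENSMUSG00000040663, chromosome 19 from 4214238 to 4223490, plus strand) shares an exon stretch with the model AC109138.7 on the same strand, so its value is uncertain.

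**Figure D2:**
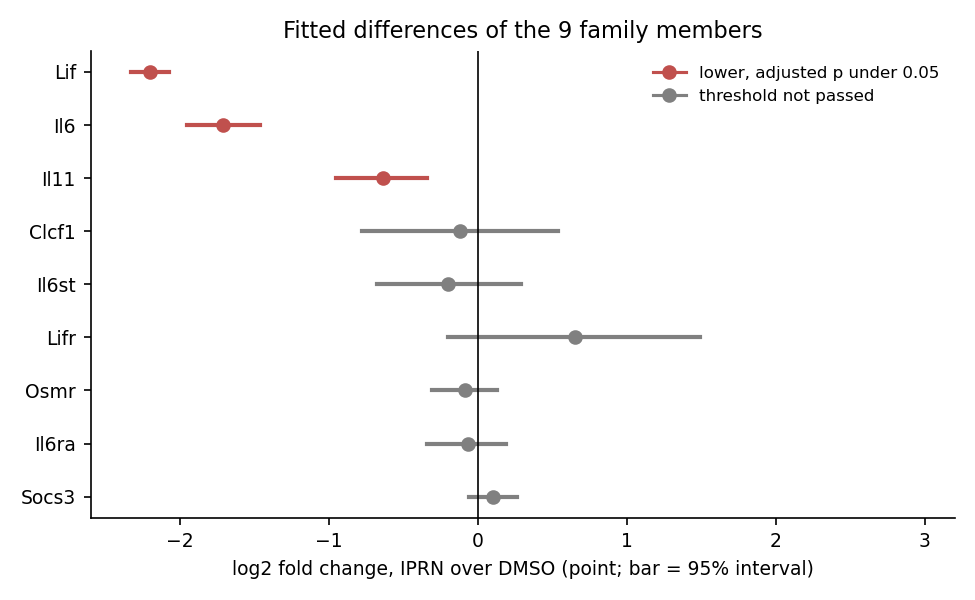
Log2 fold change of each member, IPRN over DMSO, from the edgeR fit, with its 95% interval. Lif at -2.20, Il6 at -1.71 and Il11 at -0.64 lie below 0 with their whole intervals, while the intervals of the other 6 members include 0.

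Il6st encodes gp130 itself. Its level was 220.6, 324.5 and 321.2 CPM in IPRN 1, 2 and 3 and 424.0, 290.4 and 279.4 CPM in DMSO 1, 2 and 3. IPRN 1 was low and DMSO 1 was high, and the other 4 libraries lay close together. The log2 fold change was -0.20 with a 95% interval from -0.68 to 0.29 (adjusted p = 0.655), and without DMSO 1 it was 0.02. The gene (ENSMUSG00000021756) lies on chromosome 13 from 112464070 to 112510086, plus strand.

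Lifr encodes the LIF receptor chain, which pairs with gp130. It measured 15.3, 15.9 and 15.4 CPM in IPRN 1, 2 and 3 and 7.56, 16.4 and 5.81 CPM in DMSO 1, 2 and 3. The IPRN libraries were nearly equal, whereas DMSO 2 lay above all of them and the other DMSO libraries lay far below. With all 6 libraries the log2 fold change was 0.65, with a 95% interval from -0.20 to 1.49 (adjusted p = 0.360). Without DMSO 2 it was 1.22 and was called higher (adjusted p = 0.0309), and dropping any of the other 5 libraries gave no call. Lifr is also a gene of liver cells, and DMSO 2 had the highest liver marker sum of the DMSO libraries, at 58.1 CPM. DMSO 3 had the lowest Lifr level of the 6 libraries with a liver sum of 33.2 CPM, and IPRN 3, with a liver sum of 3.4 CPM, had 15.4 CPM of Lifr. With a term for the libraries with liver markers in the fit the log2 fold change was 0.67 (adjusted p = 0.381). The part of liver transcripts in the Lifr level of DMSO 2 was not tested. Lifr (ENSMUSG00000054263) lies on chromosome 15 from 7090614 to 7197489, plus strand.

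Osmr encodes the oncostatin M receptor chain. It was at 193.8, 149.5 and 162.6 CPM in IPRN 1, 2 and 3 and at 181.4, 183.5 and 173.7 CPM in DMSO 1, 2 and 3. The DMSO libraries fell inside the range of the IPRN libraries, and the 95% interval of the log2 fold change ran from -0.31 to 0.13 around -0.09 (adjusted p = 0.658). Il6ra, which binds interleukin-6 and confers the response to it on the cells that carry it, had 30.8, 27.5 and 24.1 CPM in IPRN 1, 2 and 3 and 26.3, 30.5 and 30.0 CPM in DMSO 1, 2 and 3. Its groups overlapped too, with a log2 fold change of -0.07 (95% interval from -0.34 to 0.19, adjusted p = 0.777). For both receptor genes the interval leaves out a fall as large as that of Il6. Il6ra is also a gene of liver cells, and the libraries nearly free of liver transcripts, IPRN 3 and DMSO 1, held the lowest Il6ra level of their group. Whether those transcripts contribute to it was not tested. Osmr (ENSMUSG00000022146) lies on chromosome 15 from 6813577 to 6874969 and Il6ra (ENSMUSG00000027947) on chromosome 3 from 89864059 to 89913196, both on the minus strand. Il6ra overlaps the antisense model Gm42809, and no strand was marked in the library protocol, so its value is uncertain.

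Socs3, which STAT3 induces and whose protein inhibits signalling at gp130, measured 107.4, 92.0 and 98.9 CPM in IPRN 1, 2 and 3 and 89.3, 96.1 and 93.0 CPM in DMSO 1, 2 and 3. The groups overlapped, since IPRN 2 lay below DMSO 2 and DMSO 3. The means were 99.4 ± 7.71 CPM in IPRN and 92.8 ± 3.40 CPM in DMSO (SD, n = 3 each). The log2 fold change was 0.10 with a 95% interval from -0.06 to 0.26 (adjusted p = 0.472). The lower end of that interval lies far above the fold changes of Lif and Il6. Socs3 (ENSMUSG00000053113) lies on chromosome 11 from 117966079 to 117970047, minus strand, on the same chromosome as Lif.

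Levels of different genes can be set beside each other only per length, for which the authors' FPKM values were used. In DMSO libraries Lif was the highest member at 45.0 ± 0.844 FPKM (SD, n = 3), above 93.6% of the tested genes. Socs3 followed at 28.8 ± 1.09 FPKM and Il6st at 26.8 ± 6.51 FPKM, and these did not differ beyond their spread. Osmr at 13.3 ± 0.413 FPKM and Clcf1 at 11.2 ± 3.91 FPKM overlapped, and so did Clcf1 and Il6, which was at 7.28 ± 0.327 FPKM. Il11 at 3.96 ± 0.459 FPKM, Il6ra at 3.01 ± 0.237 FPKM and Lifr at 0.826 ± 0.475 FPKM came last and did not overlap.

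In IPRN libraries the order was different. Socs3 was highest at 30.9 ± 2.04 FPKM, followed by Il6st at 23.5 ± 5.11 FPKM. Osmr at 12.5 ± 1.51 FPKM overlapped Clcf1 at 10.3 ± 1.92 FPKM, and Clcf1 overlapped Lif, which was at 9.83 ± 0.387 FPKM. Il6ra at 2.86 ± 0.301 FPKM, Il11 at 2.54 ± 0.233 FPKM and Il6 at 2.23 ± 0.234 FPKM stood close together, each overlapping its neighbour, and Lifr was lowest at 1.30 ± 0.0377 FPKM. The 4 ligand genes together summed to 25.3, 26.7 and 22.6 FPKM in IPRN 1, 2 and 3 and to 69.2, 69.3 and 63.8 FPKM in DMSO 1, 2 and 3. Lif made up 39.1%, 38.0% and 41.7% of that sum in IPRN 1, 2 and 3 and 64.5%, 64.1% and 72.1% in DMSO 1, 2 and 3. Clcf1 made up 44.2%, 43.3% and 35.8% in IPRN and 19.0%, 19.8% and 10.5% in DMSO. Among these 4 genes Clcf1 thus had the largest share in IPRN 1 and IPRN 2, and Lif in IPRN 3 and in all DMSO libraries. Clcf1 itself was at 10.3 FPKM in IPRN and 11.2 FPKM in DMSO. Its shared exon stretch makes its level, and so this order in IPRN, uncertain.

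**Figure D3:**
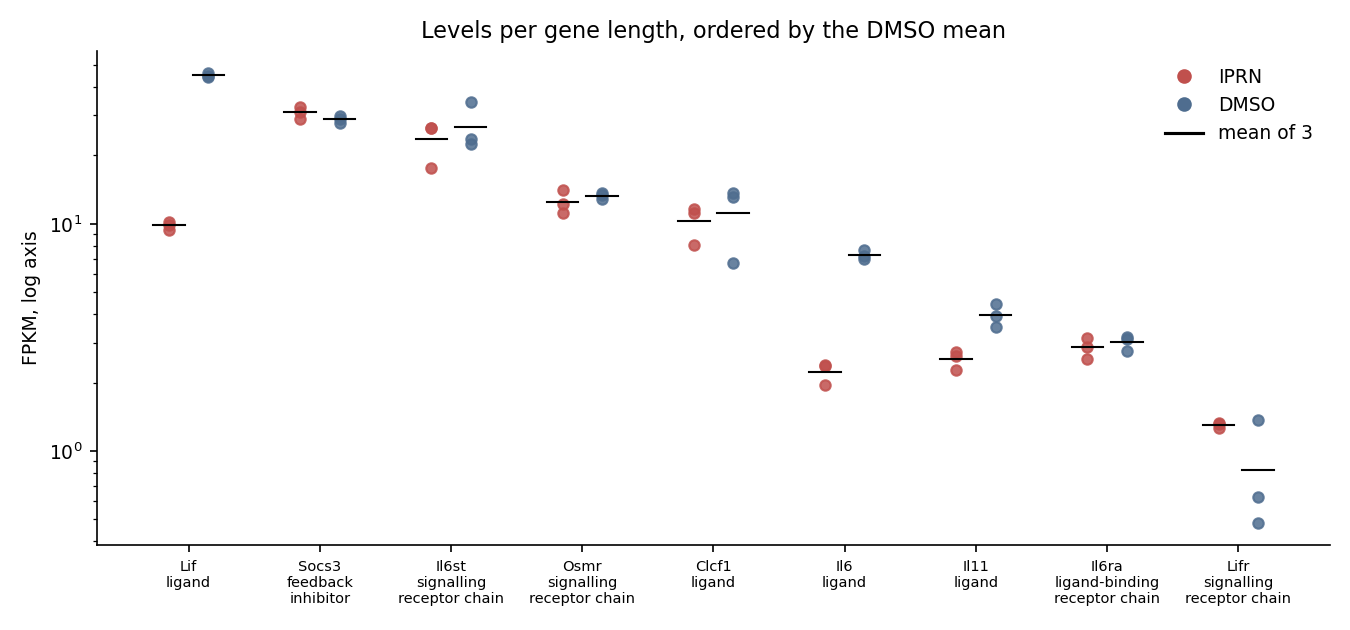
FPKM of each member on a log axis, ordered by the DMSO mean, with 1 point per library and a line at the mean of 3. Lif is the highest member in DMSO at 45.0 FPKM. In IPRN Lif, at 9.83 FPKM, overlaps Clcf1 and lies below Osmr, and Lifr is the lowest in both groups.

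Among 11 further ligand and receptor genes of the family, 4 passed the filter, and of these 0 rose, 0 fell and 4 did not pass the test in edgeR (0 in either direction at an unadjusted p under 0.05, and 0 by DESeq2). They were Il11ra1, Cntf, Ctf1 and Il31ra, with a median log2 fold change of 0.24. The interleukin-11 binding chain Il11ra1 was at 39.6 ± 3.14 CPM in IPRN and 37.8 ± 2.85 CPM in DMSO, with a 95% interval of the log2 fold change from -0.14 to 0.28. Il11ra1 overlaps Ccl27a and its value is uncertain.

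The other receptor and ligand genes of the family were near the limit of detection. Oncostatin M itself, Osm, had 8 counts in IPRN 1 and 0 in the other 5 libraries, and Cntfr, the CNTF receptor chain, had 4 to 21 counts in IPRN libraries and 0 to 8 in DMSO libraries. A floor of 3 counts stood for between 0.0382 and 0.0497 CPM, so differences in these genes were not detectable at this depth. Cntf had 0, 81 and 83 counts in IPRN 1, 2 and 3 and 146, 157 and 161 counts in DMSO 1, 2 and 3, which did not pass (adjusted p = 0.505). Cntf shares an exon stretch with Zfp91 on the same strand, so these counts are uncertain. The genes of this list were named after their values were seen.

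Of 17 genes for JAK kinases, STAT factors and their regulators, 0 rose and 0 fell in edgeR, with a median log2 fold change of 0.01. At an unadjusted p under 0.05, 3 were higher and 3 lower. DESeq2 called 3 higher, which were Tyk2, Pias3 and Socs1, and 0 lower, against 2312 of 17159 genes called by it in either direction. Stat3, the main transcription factor downstream of gp130, was at 150.5 ± 3.0 CPM in IPRN and 151.3 ± 6.92 CPM in DMSO (95% interval of the log2 fold change from -0.13 to 0.11). Jak1, the main kinase bound to gp130, was at 225.0 ± 6.25 CPM in IPRN and 245.8 ± 7.08 CPM in DMSO (adjusted p = 0.163). Stat3 overlaps Stat5a and Jak1 overlaps Raver2 on an exon, so both values are uncertain. Tyk2 and Pias3 also share exon stretches with other models, so their values and DESeq2 calls are uncertain too. Socs1, a second inhibitor of JAK kinases, had 15.4, 15.8 and 17.7 CPM in IPRN 1, 2 and 3 and 12.7, 13.3 and 12.5 CPM in DMSO 1, 2 and 3, apart in all libraries but at an adjusted p of 0.0802 in edgeR. These genes were named after their values were seen.

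STAT3 response genes, a list of 18 textbook targets that other pathways also drive and that was drawn up with earlier results of these libraries known, held 5 that fell, 0 that rose and 13 that did not pass in edgeR, with a median log2 fold change of -0.23. Over all tested genes edgeR called 3.01% lower and 2.46% higher. At an unadjusted p under 0.05, 1 was higher and 9 lower. DESeq2 called 7 lower and 1 higher, which was Bcl3 (DESeq2 adjusted p = 0.00791, named after its value was seen). Over all 17159 genes that passed the filter DESeq2 called 2312 in either direction. Since the list was drawn up with earlier results known, nothing is read from these counts. Junb, an AP-1 subunit gene, had the largest of the 5 falls, at 132.5 ± 3.03 CPM in IPRN and 252.6 ± 8.40 CPM in DMSO (SD, n = 3 each), 1.91-fold lower at an adjusted p of 0.000188. Vegfa, a growth factor gene for blood vessels, was 1.29-fold lower, the AP-1 gene Fosl2 1.24-fold lower and the survival gene Mcl1 1.34-fold lower. The transcription factor gene Cebpd, 1.41-fold lower, was the last of the 5 and was named after its value was seen. The adjusted p-values of these 4 genes were 0.0181, 0.0217, 0.0291 and 0.0353. Junb stayed called whichever library was left out. Vegfa, Fosl2, Mcl1 and Cebpd each lost their call in 5 of the 6 such fits, with adjusted p-values up to 0.0875, 0.102, 0.123 and 0.134, and stayed called without IPRN 1. The count of falls was 1 without DMSO 1, DMSO 2, DMSO 3 or IPRN 2, 2 without IPRN 3, 6 without IPRN 1 and 2 without both DMSO 1 and IPRN 3. Junb overlaps Prdx2, Cebpd overlaps Spidr and Bcl3 overlaps Gm16175, so their values are uncertain.

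**Figure D4:**
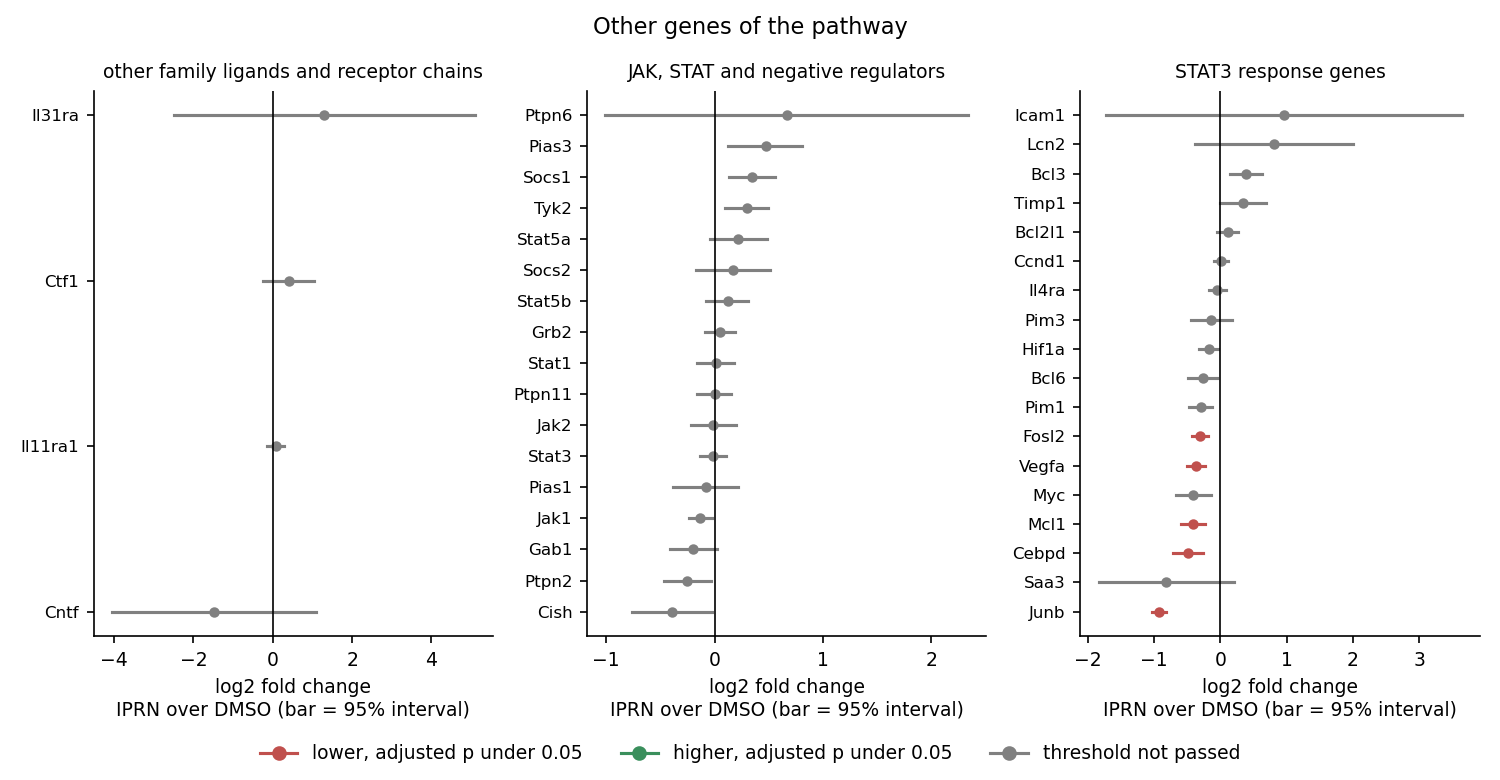
Log2 fold change, IPRN over DMSO, with its 95% interval for the tested genes of 3 lists outside the 9 members, with colour for genes past an adjusted p of 0.05 in edgeR. No gene is coloured in the left or middle panel, and 5 genes from Junb at -0.93 to Fosl2 at -0.31 are coloured on the right.

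Saa3, an acute-phase gene that cytokines induce in fibroblasts and macrophages, showed 14.0, 15.8 and 45.6 CPM in IPRN 1, 2 and 3 and 41.8, 45.3 and 46.0 CPM in DMSO 1, 2 and 3. IPRN 3 matched DMSO, and the other IPRN libraries lay far below. IPRN 3 was also the library with the highest myeloid marker sum, 144.8 CPM, most of it Lyz2. Lyz2 was at 98.0 CPM there, against 6.76 and 7.21 CPM in IPRN 1 and IPRN 2, while Cd14 was lower there than in every DMSO library. Saa3 did not pass (adjusted p = 0.333), and the part of the myeloid transcripts in its IPRN 3 level was not tested. Hp, the haptoglobin gene and a classical interleukin-6 response gene of the liver, was on the liver marker list and was the only one of its 20 genes called. It measured 15.3, 16.0 and 15 CPM in IPRN 1, 2 and 3 and 39.4, 40.9 and 41.2 CPM in DMSO 1, 2 and 3, 2.63-fold lower at an adjusted p of 0.000188. The lowest Hp value of each group was in the library nearly free of the other liver transcripts, IPRN 3 and DMSO 1. The highest was in IPRN 2 and DMSO 3, whereas the liver sum without Hp was highest in IPRN 1 and DMSO 2. With the term for libraries with liver markers the log2 fold change of Hp was -1.39 (edgeR adjusted p = 0.00117). Without both DMSO 1 and IPRN 3 it was -1.4 (edgeR adjusted p = 0.0204). The part of liver transcripts in the Hp level was not tested. Saa3 and Hp were picked out after their values were seen.

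The genes whose course over the 6 libraries was most like that of Lif were sought among 9717 genes that averaged 5 CPM or more, by the root mean square difference of log2 levels after centring each gene on its own mean. They were the orphan nuclear receptor gene Nr4a1 (difference 0.058), the zinc finger gene Egr1 (0.0771) and the antiproliferative gene Btg2 (0.0958), all of which are early response genes. Nr4a1 was 4.83-fold lower, Egr1 4.60-fold and Btg2 4.12-fold. Nearest to Il6 were Rgs16, a GTPase activator for G proteins (0.0925), the neutrophil chemokine gene Cxcl5 (0.0930) and Egr3 (0.111). Nearest to Il11 were Styk1, a kinase-like gene (0.0244), the zinc finger gene Zbtb10 (0.0687) and Fdft1, the squalene synthase gene (0.0727), which were 1.61-fold, 1.5-fold and 1.59-fold lower. Like Il11, Styk1 and Zbtb10 were called 0 of 6 times when each library was dropped in turn, and Fdft1 2 of 6 times. Likeness here is dominated by the size of the group difference, and Rgs16 and Fdft1 share exon stretches with other models.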

How the data were processed

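Polyadenylated RNA of 6 NIH3T3 libraries (3 IPRN, 3 DMSO, grouped by title) was captured, fragmented and copied with random primers, per the labels' protocols, with no step that marks strand. The authors deposited a table per library with raw counts per Ensembl gene and FPKM values, per the file headers. FPKM, which the authors scaled by length and library size, was used for levels only. The tool listed in the submitters' processing notes is cutadapt 1.9. For aligner, counter, build and annotation the choice was not given in the sources used here. Among 55141 IDs shared with GENCODE M21 (GRCm38), 94.2% had identical positions, as did 8 of the 9 members (Il11 differed at 1 end).

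The test was edgeR 4.0.16 under R 4.3.3 (TMM, default filter at a minimum count of 10, quasi-likelihood, group as the only term), checked on simulated data. SE was derived from the F statistic, and 95% intervals from SE and the fit's degrees of freedom. DESeq2 1.42.0, other filters and left-out libraries were alternatives. Every pair of replicates differed beyond sampling noise, with chi-square divided by its degrees of freedom between 34.0 and 97.6. Floors cover counting error only. Named genes were the 9 members, up to 4 called genes per pathway list and direction, and the 3 nearest profiles to Lif, Il6 and Il11 (0.5 CPM added before the log). Members and lists were chosen with earlier results of these data known, and motifs after the sequences had been read. A gene of the list of other family members is not reported here.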

Additional observations from a re-analysis of the deposited data

How the results depend on the processing

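Lif and Il6 were called lower in all 13 alternatives run, with adjusted p-values up to 0.00525 for Lif and 0.0282 for Il6. Il11 was called with other size factors, DESeq2 or a mean of at least 50 counts, but not without a filter (adjusted p = 0.0620), with a liver transcript term in the model (0.0565), or without DMSO 1 and IPRN 3 (0.237). The members called lower were therefore 3 or 2. Leaving out 1 library gave 0 to 1 member called higher (Lifr, without DMSO 2). The direction of Clcf1 turned without DMSO 1 (log2 fold change 0.01), DMSO 2 (0.06), IPRN 3 (0.03) or both DMSO 1 and IPRN 3 (0.16), and was lowest without DMSO 3 (-0.38). Il6st ran from -0.31 to 0.02 and Il6ra from -0.16 to 0.01 with 1 library left out. The causes were not tested.

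Over all genes, 938 were called. The count was 621 without a filter, 2312 by the DESeq2 test, 429 with the term for liver transcripts, 53 without DMSO 1 and IPRN 3, and from 133 to 1047 with 1 library left out. Same-numbered libraries did not deviate together (correlations of -0.175, 0.0864 and -0.13), so the numbers were not taken as pairs. A replicate block gave 103 calls and left Lif (adjusted p = 0.00282) and Il6 (0.0107) called but not Il11 (0.141).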
